A study of Mus musculus with 24 samples.

Results

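CD4 T cells from the marrow of mice with immune-mediated bone marrow failure were compared by whether the mice had received cyclosporine (CSA), a drug that blocks the phosphatase calcineurin. The comparison takes 12 of the 24 libraries of the study: the 6 CD4 pools with CSA (CSA 16, 17 and 18 and RUX+CSA 22, 23 and 24) and the 6 without it (untreated 13, 14 and 15 and RUX 19, 20 and 21). Membership follows the cell type and treatment labels, so no measured value chose the libraries. RUX is ruxolitinib, an inhibitor of the JAK1 and JAK2 kinases, given at a low dose per the series' title, and its presence was a covariate in the fit. All animals were female CByB6F1 mice of 2 to 5 months with bone marrow failure, also those without a drug. Each pool held cells of 2 or 3 mice of 1 group, sorted by flow cytometry, and there were 3 pools per group. No library from mice without the disease was used here.

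When the T cell receptor is engaged, calcium enters the cell and activates calcineurin, which removes phosphate groups from the NFAT factors and lets them enter the nucleus. There NFAT acts with AP-1 factors at cytokine and activation genes. Cyclosporine bound to a cyclophilin blocks calcineurin. In this disease model T cells attack the marrow, CD4 cells among them, and regulatory T cells, marked by the factor Foxp3, restrain such attacks. In RNA from sorted pools, fewer cells of a type and less RNA per cell cannot be told apart.

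Libraries held 17.7 to 32.7 M (mega) counted read pairs and 13240 to 16459 genes with at least 1 pair. A count of 3, taken as the floor, is 0.0916 to 0.17 counts per mega read pairs (CPM, on all counted pairs), and covers counting error only. Levels of single genes below are CPM of totals scaled by trimmed mean of M values (TMM). The CD4 label held: Cd4 lay at 1190 to 1720 CPM of all counted pairs and Cd8a at 1.19 to 8.13 CPM. Untreated 14 stood apart, with correlations of log2 CPM over genes (Pearson's r) of 0.899 to 0.953 with the other 11 libraries, against 0.939 to 0.98 among the rest. Its summed neutrophil markers, at 102 CPM, were the lowest of all 12 libraries, and the 6 CSA pools had 3750 to 18600 CPM. Counts below that moved by more than 1.5-fold without untreated 14 are given with that value.

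CSA was accompanied by higher levels of several NK-type receptor, immediate early and naive or memory genes, and by lower levels of cell cycle genes and of Foxp3. Of 13175 genes tested, 503 were higher and 478 lower with CSA at an adjusted p below 0.05, which is 7.45% in all, 3.82% higher and 3.63% lower. Of these, 273 differed by more than 2-fold. The 6 CSA pools all lay above the 6 others for 292 genes (2.22%) and all below for 215 (1.63%), together 3.85%. Among the calls 248 higher and 178 lower genes had such separate groups. RUX had 2 calls in the same fit (0.0152%), with 1245 genes at an unadjusted p below 0.05, 170 calls in DESeq2 and none in limma voom. The number of CSA calls was 541 without RUX 20, 588 without CSA 18 and 1171 without untreated 14, and 1634 in DESeq2. With the mean of neutrophil, erythroid, B cell and macrophage markers as a further covariate it was 253, and 50.5% of the variance of that mean lay between pools with and without CSA.

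The clearest group of higher genes encodes receptors shared by NK cells and cytotoxic T cells. Klrc1, which encodes the inhibitory receptor chain NKG2A (chromosome 6, 129666016 to 129678973, mm10), lay between 33.3 and 78.6 CPM (median 56.1) in the 6 pools without CSA and between 255 and 495 CPM (median 356) in the 6 with it. The lowest CSA pool stood above the highest pool without CSA by more than 3-fold in these values, and the log2 difference was 2.71 (SE 0.21, adjusted p = 6.04e-05). Klrd1, whose product CD94 pairs with NKG2 chains, ran from 60.5 to 103 CPM (median 78.2) without and from 172 to 207 CPM (median 190) with CSA (log2 1.27, SE 0.11, adjusted p = 1.36e-05). Klrk1, for the activating receptor NKG2D, ran from 29.7 to 52.4 CPM (median 40.4) and from 128 to 200 CPM (median 152) in the same order (log2 1.96, SE 0.14, adjusted p = 8.95e-06). None of these 3 genes had overlapping groups. Klrc2 and Klre1, of the same gene cluster, were higher too (log2 1.89 and 1.65, adjusted p = 0.0434 and 0.0127), with overlap. The 5 genes lie together on chromosome 6 between 129578286 and 129678973, and reads of near-identical Klr genes may have been split between them. Klri2, the next tested gene of the cluster, did not pass (log2 0.31, adjusted p = 0.505).

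**Figure D1:**
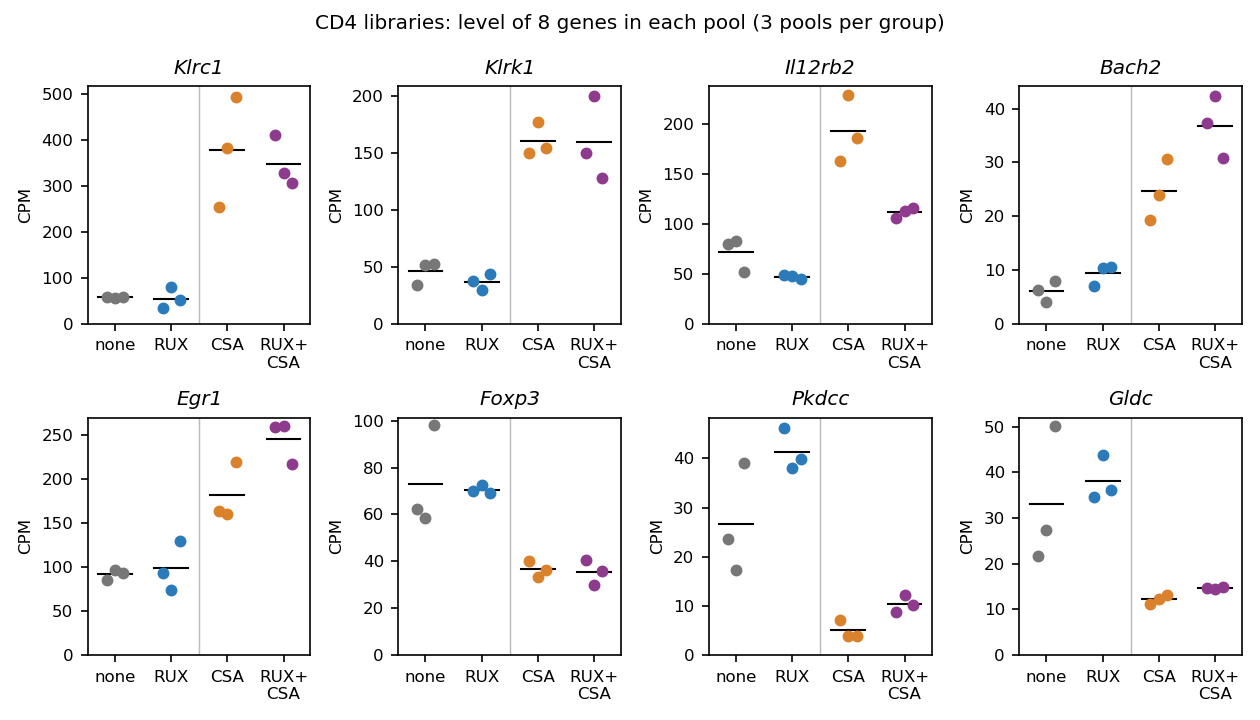
Level of 8 genes in each CD4 pool, in CPM on a linear axis from 0, for untreated (none), RUX, CSA and RUX+CSA pools. Points are pools, black lines are means of 3 pools, and the grey line parts pools without and with CSA: for Klrc1 all 6 CSA pools lie at 255 CPM or more and all others at 78.6 CPM or less, and for Foxp3 the order is the opposite (30.1 to 40.6 against 58.5 to 98 CPM).

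These receptors were part of a list of 34 cytotoxic effector genes, of which 16 were higher and 1 lower (median log2 0.41, against -0.01 over all genes tested). The mean log2 CPM of the list lay between 6.32 and 6.66 in CSA pools and between 5.75 and 6.10 in the others, without overlap. Gzmb, for granzyme B, the protease of killer granules, stood at 94.7 to 230 CPM (median 139) without CSA and at 146 to 601 CPM (median 357) with it. Its groups overlapped, and the difference passed (log2 1.20, SE 0.17, adjusted p = 0.00167). Lgals3, for galectin 3, rose from 186 to 230 CPM (median 211) to 347 to 565 CPM (median 402), again without overlap (log2 0.97, SE 0.10, adjusted p = 3.89e-05). Ccl5, a chemokine of effector cells, ran from 512 to 748 CPM (median 659) without and from 1010 to 1790 CPM (median 1140) with CSA (log2 0.96, SE 0.15, adjusted p = 0.00328). The calcium-binding S100a6 and S100a4 and galectin 1 (Lgals1) were higher in every CSA pool than in every other pool (log2 0.60, 0.43 and 0.56). The lower member was Gzmk, for granzyme K, at 34.8 to 251 CPM (median 178) without and 19 to 65 CPM (median 29.5) with CSA (log2 -2.25, SE 0.44, adjusted p = 0.0178). Prf1, for the pore-forming perforin, did not pass (log2 0.05, SE 0.16, adjusted p = 0.903), nor did Gzma (log2 -0.09, adjusted p = 0.879). With the other-cell covariate 9 members were higher and none lower.

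Markers of other cells that carry such receptors moved as follows. Of 9 tested NK cell markers 3 were higher (Klrk1, Klra7 and Klre1) and none lower, and 1 was higher with the other-cell covariate. Klrk1 and Klre1 are also among the receptors above, so this list is not a separate check of them. The summed level of the list was 205 to 275 CPM (median 221) with CSA and 99.7 to 158 CPM (median 128) without, and without Klrk1 it was 45.7 to 128 CPM (median 68.1) and 46.9 to 112 CPM (median 89.5). Eomes, a factor of NK and memory cells and the highest of the rest, did not pass (log2 -1.01, adjusted p = 0.101). The mean log2 CPM of the 8 tested markers other than Klrk1, which weights low genes equally, was 1.68 to 2.70 with and 0.14 to 0.97 without CSA. Klra8 and Klra4 were listed at 0 in all 12 libraries. Pairs that map to several places were not counted, so a 0 in such near-identical genes does not show that they were silent. Ncr1, the defining receptor NKp46, lay at 0 to 0.443 CPM without and 0.0463 to 1.64 CPM with CSA and did not pass (adjusted p = 0.196). Cd8a and Cd8b1 had no call (median log2 -0.24), with summed levels of 10.1 to 29 CPM without and 10.7 to 21.8 CPM with CSA. Gamma-delta T cell and innate lymphoid markers had 3 of 7 higher (Cd163l1, Blk and Zbtb16) and none lower. The higher count was 1 with the other-cell covariate. Zbtb16 lay at 0 to 0.131 CPM without and 0.0926 to 1.23 CPM with CSA, with overlap (log2 4.4, adjusted p = 0.0189). The list's mean log2 CPM was 2.01 to 2.55 with and 0.86 to 1.63 without CSA. Summed levels of the list overlapped, at 311 to 418 CPM with and 263 to 381 CPM without CSA. The part of these cells in the receptor differences was not tested beyond these values.

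T helper 1 genes were among the higher ones. Of 18 tested, 5 rose and none fell (median log2 0.25), and 2 were higher with the other-cell covariate. Il12rb2, which encodes the signalling chain of the interleukin 12 receptor (chromosome 6, 67292018 to 67376137), ran from 45.1 to 83.1 CPM (median 50) without CSA and from 106 to 229 CPM (median 140) with it (log2 1.34, SE 0.11, adjusted p = 1.02e-05). The groups did not overlap. The others were Ccl5, Il18rap, a chain of the interleukin 18 receptor (log2 0.53, adjusted p = 0.00658), the surface protein gene Ly6c2 (log2 1.45, adjusted p = 0.0201), and Tbx21, for the T helper 1 factor T-bet. Tbx21 lay at 194 to 280 CPM (median 237) without and 264 to 346 CPM (median 305) with CSA, with overlap (log2 0.36, SE 0.09, adjusted p = 0.02). That call was absent without RUX 20. Ly6c2 also marks monocytes and is in the macrophage list.

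The cytokine genes themselves mostly did not pass. Of 29 tested cytokine and chemokine genes, Ccl5, Ccl4 and Csf1 were higher and Il6 lower, and without untreated 14 there were 5 higher. There was 1 higher and none lower with the other-cell covariate, and Il6 lost its call in 5 of 12 fits without 1 library. Ifng, for interferon-gamma, lay at 96.2 to 239 CPM (median 130) without CSA and 86.3 to 200 CPM (median 187) with it, and did not pass (log2 0.23, SE 0.23, adjusted p = 0.63). Il2, the classical NFAT target, was low in both, at 1.37 to 5.24 CPM (median 2.72) and 0.88 to 2.39 CPM (median 1.54), and did not pass either (log2 -0.72, SE 0.38, adjusted p = 0.288). Tnf (log2 -0.35, SE 0.18), Cd40lg, for the ligand with which helper cells act on B cells (log2 0.24, SE 0.12), Il4 (log2 -0.91, SE 0.59) and Fasl, for a death ligand (log2 -0.13, SE 0.13), had adjusted p = 0.276, 0.259, 0.399 and 0.602. Groups overlapped for each of these 6 genes. Csf1, a growth factor of macrophages, passed with overlap (log2 0.89, adjusted p = 0.0181), and so did Ccl4, a chemokine of effector cells, without overlap (136 to 303 CPM against 337 to 627 CPM, log2 1.06, adjusted p = 0.0157).

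Genes of naive and memory T cells had the highest median of the 28 functional lists, 0.51. Several marker lists had higher medians. They were erythroid (2.79), NK cell (1.96), basophil, mast cell and eosinophil (1.73), and gamma-delta T cell and innate lymphoid (1.5) markers. Neutrophil (1.24), B cell (0.91), dendritic cell (0.85) and stem and progenitor (0.83) markers were the others. Of 26 tested, 5 were higher, none was lower and 21 had a log2 difference above 0. Bach2, a repressor that holds T cells in a less differentiated state (chromosome 4, 32417435 to 32586108), lay at 4.02 to 10.5 CPM (median 7.52) without CSA and at 19.3 to 42.3 CPM (median 30.7) with it. The groups did not overlap, with a log2 difference of 2.00 (SE 0.18, adjusted p = 2.01e-05). The chromatin organiser Satb1 (42.4 to 78 CPM against 106 to 205 CPM, log2 1.15, adjusted p = 0.00127) and the factor Foxp1 (77.9 to 93.1 CPM against 104 to 173 CPM, log2 0.67, adjusted p = 0.00123) were separate as well. Klf2, which drives egress and homing receptors, passed with overlap (115 to 255 CPM against 244 to 456 CPM, log2 0.88, adjusted p = 0.0259), as did Dapl1 (log2 1.64, adjusted p = 0.0238). Known surface receptors of naive and memory cells did not pass, among them Ccr7 (log2 0.44, SE 0.32, adjusted p = 0.464) and Il7r (log2 0.19, SE 0.30, adjusted p = 0.758). Tcf7 and Lef1 were at log2 0.18 and 0.06 (adjusted p = 0.68 and 0.801). Without RUX 20 the count of higher members was 3, and with the other-cell covariate 3 were higher and 1 lower.

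Cd44, an adhesion receptor that is high on T cells with antigen experience, rose from 192 to 235 CPM (median 220) to 297 to 393 CPM (median 338), without overlap (log2 0.68, SE 0.08, adjusted p = 0.000141). It led a list of 32 homing and adhesion genes with 5 higher and 1 lower. The sphingosine receptor gene S1pr4 (log2 0.54, adjusted p = 0.00505), the integrin genes Itga1 (log2 1.56, adjusted p = 0.00252), Itgav (log2 0.41, adjusted p = 0.0214) and Itgb2 (log2 0.22, adjusted p = 0.04) were higher, and Itgae, for the integrin CD103, was lower (log2 -1.23, adjusted p = 0.00331). Without CSA 17 or RUX 20 the higher count was 3, and without untreated 13 it was 8. Of 25 tested costimulation genes 3 were higher (Slamf7, Tnfrsf25 and Cd28) and 3 lower (Tnfrsf9, Tnfrsf1b and Cd86, log2 -0.60, -0.35 and -0.56), with a median of -0.11, and with the other-cell covariate 1 was higher and 1 lower. Slamf7, a receptor of effector cells, ran from 37.5 to 69.1 CPM without and from 87.6 to 156 CPM with CSA (log2 1.29, SE 0.13, adjusted p = 5.20e-05). Cd28, the main costimulatory receptor, passed with a small difference (log2 0.32, SE 0.07, adjusted p = 0.0161).

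**Figure D2:**
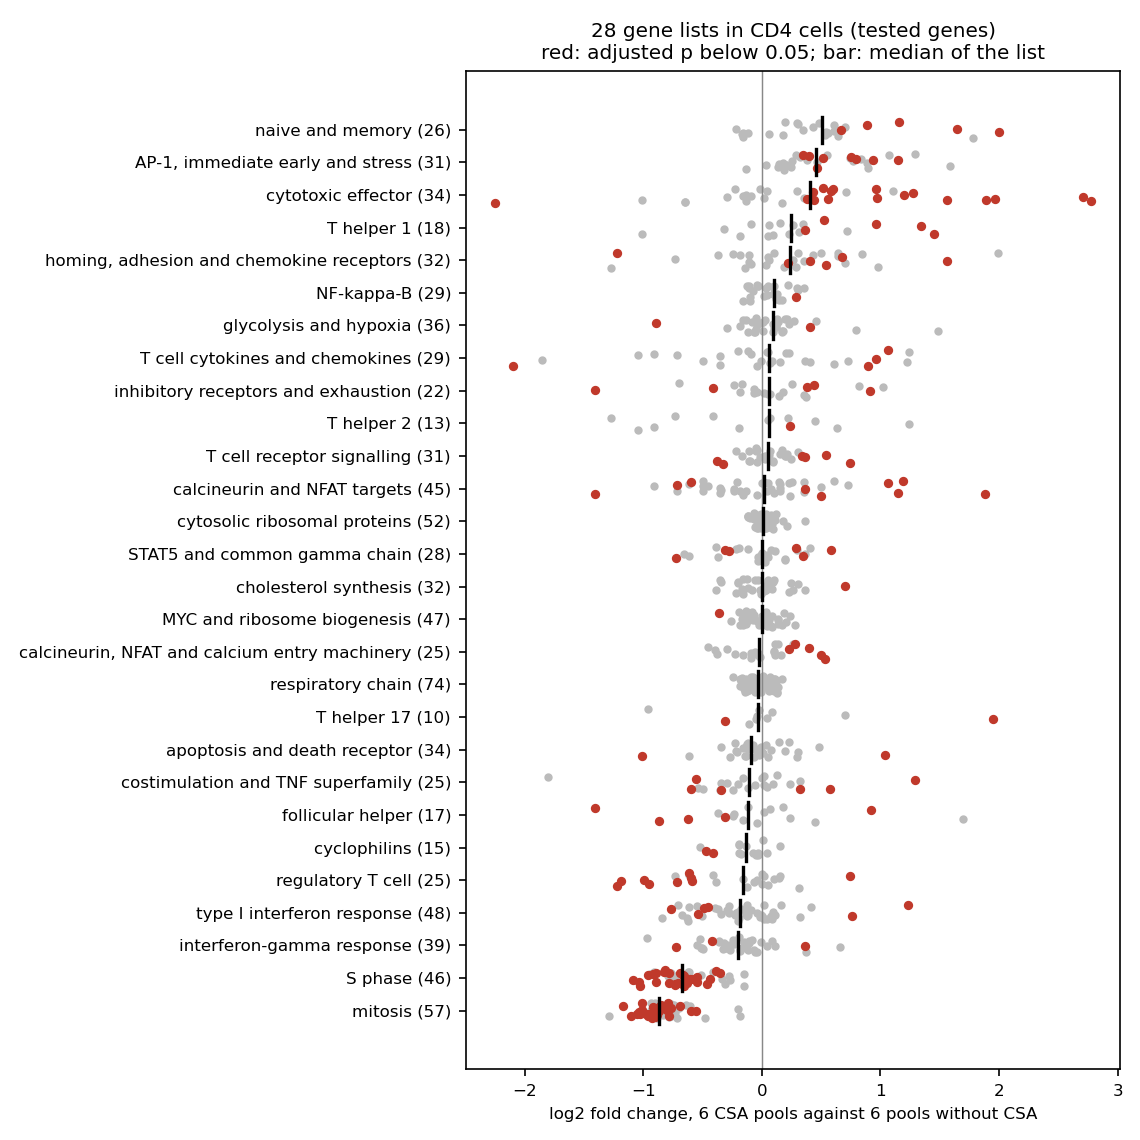
Log2 fold change of each tested gene of 28 lists between the 6 CSA pools and the 6 others, with the number of tested genes in brackets, red points for genes at an adjusted p below 0.05 and a black bar at the list's median. All 46 S phase and all 57 mitosis genes lie left of 0, while 21 of 26 naive and memory genes and 30 of 31 immediate early genes lie right of it.

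Several genes induced within minutes of a stimulus were higher. Of 31 tested AP-1, immediate early and stress genes 8 rose and none fell, and 30 were above 0 (median log2 0.46). The mean log2 CPM of the list overlapped, at 5.69 to 7.09 without and 6.30 to 7.17 with CSA. The highest pool without CSA was RUX 21. Egr1, a zinc finger factor induced through MAP kinases (chromosome 18, 34861207 to 34864956), lay at 73.6 to 130 CPM (median 93.3) without and 161 to 261 CPM (median 218) with CSA. Its groups were separate (log2 1.15, SE 0.13, adjusted p = 0.000211). Dusp5, a phosphatase that curbs MAP kinases, ran from 66.9 to 107 CPM without and from 128 to 171 CPM with CSA (log2 0.80, adjusted p = 0.000519). Btg2, an antiproliferative gene, and the AP-1 gene Fosl2 were separate too (log2 0.46 and 0.94, adjusted p = 0.00463 and 0.00738). Ier2, Jund, Zfp36 and Dusp6 passed with overlap (log2 0.52, 0.34, 0.76 and 0.40). Fos and Jun, the AP-1 core genes, varied widely within groups and did not pass: Fos lay at 80.3 to 484 CPM without and 93.9 to 529 CPM with CSA (log2 0.74, SE 0.42, adjusted p = 0.351), and Jun had log2 0.46 (SE 0.35, adjusted p = 0.495). The count of 8 was 5 without untreated 13, CSA 18, RUX 19, RUX 20 or RUX+CSA 24 each, and 2 with the other-cell covariate.

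Textbook targets of calcineurin and NFAT did not move one way. Of 45 tested, 6 were higher, 3 lower, and the median was 0.02. The counts were 3 and 2 with the other-cell covariate. Egr3, a zinc finger factor that NFAT induces, ran from 9.8 to 15.8 CPM (median 12.6) without and from 23.5 to 34.1 CPM (median 28.9) with CSA, without overlap (log2 1.19, SE 0.11, adjusted p = 3.00e-05). Nr4a1, an orphan nuclear receptor that reports receptor signalling, stood at 33.9 to 88.4 CPM (median 60.3) and 119 to 343 CPM (median 250), also separate (log2 1.88, SE 0.30, adjusted p = 0.00625). Ccl4, Nfatc1 and Irf8 were the other higher members besides Egr1. The lower ones were Tnfrsf9, for the costimulatory receptor 4-1BB (117 to 193 CPM against 80.9 to 119 CPM, log2 -0.60, adjusted p = 0.0101), Ikzf2 (log2 -0.71, adjusted p = 0.0126) and Tox2 (log2 -1.41, adjusted p = 0.0287). Egr2, the close relative of Egr3, did not pass (41.8 to 65.3 CPM against 23.7 to 52.7 CPM, log2 -0.24, SE 0.17, adjusted p = 0.445). Rcan1, for a calcineurin regulator that NFAT induces, lay at 20.2 to 36.3 CPM (median 21.8) without and 14.5 to 21.4 CPM (median 18.1) with CSA and did not pass (log2 -0.45, SE 0.16, adjusted p = 0.0993). Nor did Irf4 (log2 0.36, SE 0.12, adjusted p = 0.0779) or Il2ra, for the high-affinity interleukin 2 receptor chain (log2 -0.61, SE 0.25, adjusted p = 0.18).

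The parts of the pathway that the drug acts on changed little. Of 25 genes of calcineurin, NFAT and calcium entry, 5 were higher and none lower, with a median of -0.02. Ppp3r1 and Ppp3ca, for the regulatory and a catalytic calcineurin subunit, passed with differences of log2 0.23 and 0.28 (SE 0.06 and 0.08, adjusted p = 0.0258 and 0.037), while Ppp3cb did not (log2 -0.04, SE 0.07, adjusted p = 0.8). Nfatc1 lay at 774 to 1130 CPM (median 830) without and 951 to 1470 CPM (median 1260) with CSA (log2 0.50, SE 0.11, adjusted p = 0.0178). Nfatc3 (log2 0.54, SE 0.09, adjusted p = 0.00373) and Orai1, for the pore of the calcium entry channel (log2 0.39, SE 0.09, adjusted p = 0.0174), passed as well. All 4 of Nfatc1, Nfatc3, Orai1 and Ppp3ca had overlapping groups. The count of 5 was 3 without CSA 17, RUX 20, RUX+CSA 23 or RUX+CSA 24 each, Ppp3r1 lost its call without each of these 4, and Ppp3ca kept its call in 3 of 12 such fits. It was 2 with the other-cell covariate. Of 15 cyclophilin genes, which include the drug's binding partner Ppia, Ppil1 and Ppih were lower (log2 -0.41 and -0.47, adjusted p = 0.028 and 0.0474), and Ppia did not pass (log2 -0.19, SE 0.08, adjusted p = 0.164). The lower count was 0 without untreated 13, CSA 17, CSA 18, RUX 19, RUX 20, RUX+CSA 22 or RUX+CSA 23 each, 1 without untreated 15 or RUX+CSA 24, and 0 with the other-cell covariate. Ppil1 kept its call in 5 and Ppih in 3 of the 12 fits without 1 library.

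Several regulatory T cell genes were lower. Foxp3, the defining factor of these cells (chromosome X, 7579676 to 7595243), lay at 58.5 to 98 CPM (median 69.5) without CSA and at 30.1 to 40.6 CPM (median 36.1) with it. The highest CSA pool stood below the lowest other pool (log2 -0.99, SE 0.12, adjusted p = 0.000204). Of 25 regulatory T cell genes 8 fell and 1, Swap70, rose (median log2 -0.16), and 7 had a log2 difference above 0. The mean log2 CPM of the list overlapped narrowly, at 5.58 to 6.01 without and 5.42 to 5.60 with CSA. Ikzf4, which encodes the Foxp3 partner Eos (9.8 to 21.8 CPM against 5 to 9.29 CPM, log2 -1.19, adjusted p = 0.00541), and Itgae were separate. Ikzf2, for the factor Helios, Lrrc32, for the receptor that displays latent TGF-beta (log2 -0.95, adjusted p = 0.0286), Izumo1r, for folate receptor 4 (log2 -0.61, adjusted p = 0.0208), Prdm1, for the factor Blimp-1 (log2 -0.59, adjusted p = 0.0237), and Tnfrsf9 fell with overlap. Ctla4, for an inhibitory receptor of these cells (log2 0.14, SE 0.17, adjusted p = 0.689), and Il10 (log2 0.16, SE 0.26, adjusted p = 0.778) did not pass. With the other-cell covariate 5 members were lower and none higher, and Foxp3 had a log2 difference of -1.32 (adjusted p = 6.58e-05).

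Follicular helper genes split. Bcl6, the factor of that lineage, was higher (9.11 to 17.7 CPM against 15.5 to 34.9 CPM, log2 0.92, SE 0.16, adjusted p = 0.00333), while Sh2d1a, for the adaptor SAP, was lower (149 to 251 CPM against 101 to 174 CPM, log2 -0.62, SE 0.09, adjusted p = 0.000617), as were Il21r, Tox2 and P2rx7. Of 17 tested, this makes 1 higher and 4 lower, and the lower count was 2 without RUX 20, RUX+CSA 22 or RUX+CSA 24 each. With the other-cell covariate none was higher and 1 lower, and without untreated 14, CSA 17 or RUX 21 there were 2 higher. Cxcr5 did not pass (log2 -0.37, SE 0.28, adjusted p = 0.484). T helper 2 and T helper 17 lists had 1 of 13 and 1 of 10 higher members, Stat6 (log2 0.24, adjusted p = 0.0467) and Cd163l1 (log2 1.95, adjusted p = 0.0025). The T helper 17 list also had 1 lower member, Il21r. In all 7.69% and 20% of these lists were called, against 7.45% of all genes tested. Cd163l1 is also in the gamma-delta T cell and innate lymphoid list.

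Cell cycle genes were lower together. Of 46 tested S phase genes 28 were lower and none higher, and all 46 had a log2 difference below 0 (median -0.67). Of 57 mitosis genes 28 were lower, none higher, and all 57 were below 0 (median -0.87). Mcm6, a subunit of the replicative helicase, lay at 423 to 698 CPM (median 559) without and 317 to 413 CPM (median 399) with CSA (log2 -0.58, SE 0.11, adjusted p = 0.00777). Rfc4, of the clamp loader (46.1 to 74.4 CPM against 23.8 to 43.8 CPM, log2 -0.81, adjusted p = 0.00738), the maintenance methyltransferase gene Dnmt1 (284 to 488 CPM against 202 to 276 CPM, log2 -0.60, adjusted p = 0.00847) and Tyms, for thymidylate synthase (80.5 to 120 CPM against 45.7 to 76.2 CPM, log2 -0.63, adjusted p = 0.0102), were likewise separate. In the mitosis list Mad2l1, of the spindle checkpoint, lay at 76.8 to 136 CPM without and 42.6 to 71.5 CPM with CSA (log2 -0.87, SE 0.16, adjusted p = 0.00698), and Racgap1, which acts in cytokinesis, at 161 to 298 and 110 to 143 CPM (log2 -0.69, SE 0.14, adjusted p = 0.0108). Mki67, the common proliferation marker, did not pass (164 to 409 CPM, median 220, against 110 to 190 CPM, median 137, log2 -0.74, SE 0.22, adjusted p = 0.0703), nor did Top2a (log2 -0.64, adjusted p = 0.108) or Cdk1 (log2 -0.79, adjusted p = 0.0837).

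Pools differed in these lists within groups too. The mean log2 CPM of the S phase list ran from 5.71 to 6.54 without CSA and from 5.14 to 5.84 with it, and that of the mitosis list from 5.66 to 6.75 and from 4.97 to 5.75. Untreated 14 was the lowest pool without CSA in both lists, and it lay below CSA 16, the highest CSA pool, in both. RUX 21 lay below CSA 16 in the mitosis list (5.70 against 5.75) and not in the S phase list. Untreated 13 and RUX 20 were the highest of all. The counts moved with these pools: without RUX 20 there were 15 lower S phase and 10 lower mitosis genes, and without untreated 14 there were 42 and 48. Without RUX+CSA 23 the S phase count also moved by more than 1.5-fold, as did the mitosis count without each library other than CSA 16 and RUX 21. With the other-cell covariate 1 S phase and 0 mitosis genes passed, with medians of -0.78 and -1.05, and with the erythroid mean as covariate, an alternative chosen after seeing the data, none passed in either list, with medians of -0.71 and -0.90. Single differences went either way with the erythroid covariate. Mcm6 had log2 -0.60 (adjusted p = 0.201), Rfc4 -1.02 (adjusted p = 0.109) and Mad2l1 -0.97 (adjusted p = 0.16), as large as or larger than before. Racgap1, at -0.52 (adjusted p = 0.396), and Dnmt1, at -0.53 (adjusted p = 0.293), had smaller differences. Genes of MYC and ribosome biogenesis (1 of 47 lower, and 2 without untreated 14), cytosolic ribosomal proteins (0 of 52) and the respiratory chain (0 of 74, and 1 lower without untreated 14) had few or no calls, with medians of 0.00, 0.01 and -0.03.

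**Figure D3:**
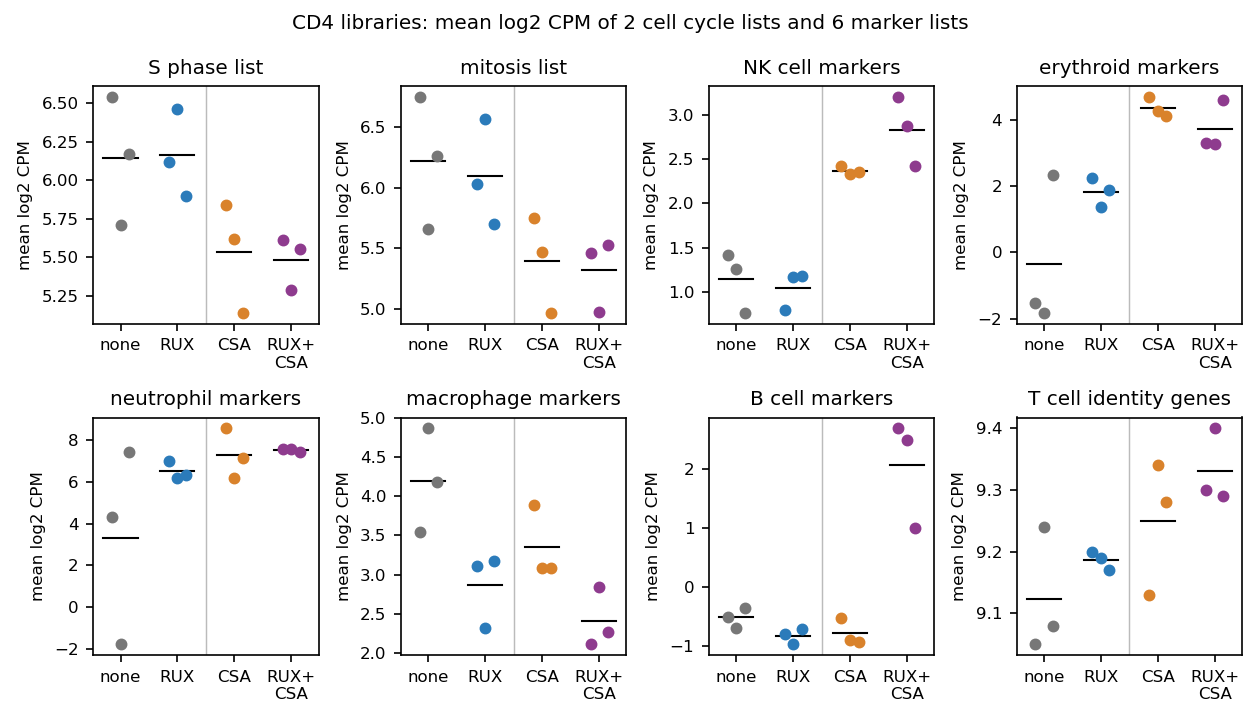
Mean log2 CPM of the S phase and mitosis lists and of 6 marker lists in each CD4 pool, by group, with black lines for means of 3 pools and axes that do not start at 0. Cell cycle means are lower in most CSA pools, NK and erythroid means are higher in all 6, and B cell means are high in the 3 RUX+CSA pools alone.

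Erythroid genes made up most of the largest positive differences. Among the 10 genes highest by log2 difference with separate groups and a mean log2 CPM of at least 1 were Aqp1, a water channel of red cells, Rhd, for a Rhesus antigen, Klf1 and Gata1, factors of the red cell lineage, Cldn13, Tspan33 and Hemgn. Gata1 lay at 0.258 to 2.79 CPM (median 0.925) without CSA and 4.51 to 14 CPM (median 6.95) with it (log2 2.80, SE 0.48, adjusted p = 0.00357). Klf1 lay at 0.101 to 2.43 CPM (median 1.75) and 7.72 to 23.2 CPM (median 10.5) (log2 3.34, SE 0.67, adjusted p = 0.0141). Of 14 tested erythroid markers 5 passed, all higher, 0 passed with the other-cell covariate, of which they are a part, and 11 had every CSA pool above every other. Their summed level was 209 to 592 CPM with and 55.7 to 148 CPM without CSA. The globin genes Hba-a1, Hbb-bs and Hbb-bt were listed at 0 in all 12 libraries. Pairs that map to several places were not counted, so this 0 does not show that they were silent. Aqp1, Rhd, Cldn13 and Hemgn each lost their call in some fits without 1 library (9, 7, 8 and 3 of 12).

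Other marker lists differed less evenly. Of 27 macrophage markers 7 were lower and 1, Ly6c2, higher (median log2 -0.62), and 2 were higher without untreated 14. C1qc, for a complement chain of marrow macrophages, ran from 5.62 to 93.8 CPM without and from 2.32 to 16.2 CPM with CSA (log2 -1.87, adjusted p = 0.0301), and the lower count was 1 without CSA 17, CSA 18, RUX 19 or RUX+CSA 24 each, 2 without RUX 21 or RUX+CSA 22, and 3 without CSA 16. The summed macrophage level went the other way from this count, at 1570 to 3560 CPM with and 912 to 2200 CPM without CSA. Of 19 neutrophil markers only Mmp9 passed (log2 1.36, adjusted p = 0.0261), a call absent without untreated 13, untreated 15, CSA 18, RUX 20 or RUX+CSA 22 each, with all 19 above 0 (median 1.24) and a summed level of 102 to 9660 CPM without CSA. Of 16 B and plasma cell markers 4 were higher, Ms4a1, Spib and Blk among them, and the list's mean log2 CPM stood out in the RUX+CSA pools alone. Ms4a1, for the B cell surface protein CD20, was at 0 to 0.0336 CPM in the 6 pools without CSA and at 0 to 20.0 CPM with it. Dendritic cell markers had 5 of 9 higher, among them Itgax (0.553 to 3.49 CPM against 6.43 to 32.8 CPM, log2 2.75, adjusted p = 0.00865) and Xcr1, and 3 without untreated 13, CSA 18, RUX+CSA 22 or RUX+CSA 23 each, or any 1 RUX pool. T cell identity genes had 3 of 14 higher (Cd28, Cd5 and Cd6, median 0.10). Counts with the other-cell covariate were 0 for macrophage, neutrophil and B cell markers, which are part of it, and 1 for dendritic cell markers and for T cell identity genes. The part of these cells in the other differences was not tested beyond the covariate values given.

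Among single genes outside the lists the smallest p belonged to Tspan2, for a tetraspanin (chromosome 3, 102734770 to 102772310). It lay at 13.1 to 19.3 CPM (median 14.9) without CSA and 32.8 to 48.1 CPM (median 41.5) with it (log2 1.40, SE 0.09, adjusted p = 1.96e-06). Xdh, for xanthine dehydrogenase of purine breakdown (chromosome 17, 73883895 to 73950196), ran from 298 to 375 CPM (median 347) and from 603 to 775 CPM (median 634) (log2 0.95, SE 0.08, adjusted p = 8.95e-06). Neither gene had overlap, and these 2 changes held in all 25 settings of the analysis. Lmna, for the nuclear lamins A and C, rose from 2.96 to 9.81 CPM (median 6.14) to 33.9 to 65.8 CPM (median 42.6) (log2 2.83, SE 0.28, adjusted p = 0.000109). Acoxl, for an acyl-CoA oxidase-like protein, rose from 0.456 to 2.02 CPM to 5.84 to 18.8 CPM (log2 3.08, SE 0.30, adjusted p = 3.86e-05). Its gene span ends at 128123892 on the plus strand of chromosome 2, shortly before Bcl2l11, for the death-promoting protein BIM, starts at 128126038 on the same strand. Bcl2l11 was higher too, at 27.6 to 64.2 CPM (median 43.9) without and 70.1 to 128 CPM (median 80.3) with CSA (log2 1.04, SE 0.15, adjusted p = 0.00101). It was the 1 higher gene of 34 tested apoptosis genes, and Birc5, which also serves mitosis, was the 1 lower gene. Without untreated 14 or RUX+CSA 24, and with the other-cell covariate, 2 apoptosis genes were higher.

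The lower single genes included several that are not usual T cell genes. Pkdcc, for a secreted kinase (chromosome 17, 83215283 to 83225069), lay at 17.2 to 46.2 CPM (median 38.5) without CSA and 3.89 to 12.3 CPM (median 7.99) with it (log2 -2.19, SE 0.21, adjusted p = 3.86e-05). Gcg, the glucagon precursor gene (chromosome 2, 62474530 to 62483653), ran from 162 to 314 CPM (median 193) and from 3.98 to 121 CPM (median 36.5) (log2 -2.57, SE 0.57, adjusted p = 0.0275). Its groups were separate, and the call was lost without CSA 16, CSA 17, RUX+CSA 22 or RUX+CSA 23 each. Tprg (log2 -2.24, SE 0.24, adjusted p = 7.80e-05), the morphogen gene Bmp7 (log2 -1.62, SE 0.21, adjusted p = 0.000491), Esm1, for the proteoglycan endocan (log2 -2.71, SE 0.44, adjusted p = 0.00511), and Gldc, for glycine decarboxylase (log2 -1.42, SE 0.17, adjusted p = 0.000168), were separate as well. The tetraspanin gene Tspan3 fell from 139 to 190 CPM (median 153) to 64.6 to 96.7 CPM (median 79.3) (log2 -1.01, SE 0.10, adjusted p = 5.65e-05). Enpp2, for autotaxin, was lower with overlap (9.18 to 26.8 CPM against 3.04 to 15.5 CPM, log2 -1.39, SE 0.27, adjusted p = 0.00744).

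Cytokine response genes moved little. Of 39 interferon-gamma response genes Irf8 was higher and Socs1 and Gbp9 lower (median log2 -0.20, 6 of 39 above 0), and none passed with the other-cell covariate. Of 48 type I interferon genes 2 were higher, Ifitm1 (8.89 to 16.7 CPM against 22.8 to 33.2 CPM, log2 1.24, adjusted p = 0.000433) and Ifitm2 (log2 0.76, adjusted p = 0.00738), and 4 lower, Xaf1, Dhx58, Oas1a and Irf7 (log2 -0.48, -0.54, -0.76 and -0.45). The lower count was 7 without untreated 14, 2 without RUX 20, 1 without untreated 15, RUX 19, RUX+CSA 23 or RUX+CSA 24 each, and 7 with the other-cell covariate. For the interferon-gamma list it was 7 without CSA 17 and 0 to 3 without each other library. Irf1 (log2 -0.12, SE 0.10, adjusted p = 0.55) and Cish, a target of STAT5 (log2 -0.66, SE 0.26, adjusted p = 0.172), did not pass. STAT5 and common gamma chain genes had 3 higher (Ccnd3, Pim1, Il2rg) and 3 lower (Il21r, Socs1, Stat5a) of 28, and 1 to 5 higher and 0 to 2 lower with 1 library left out (5 and 1 without untreated 14). Of 31 receptor signalling genes Ptpn6, for the phosphatase SHP-1 (log2 0.54, adjusted p = 0.00551), Pag1, Cd5 and Cd6 were higher, and the kinase gene Fyn (924 to 1050 CPM against 605 to 883 CPM, log2 -0.38, adjusted p = 0.00526) and Themis (log2 -0.33, adjusted p = 0.0154) lower. Only 1 was higher and none lower with the other-cell covariate. Inhibitory receptor genes had 3 of 22 higher (Pdcd1lg2, Klrg1, Cd96) and 2 lower (Tox2, Cd101). The lower count was 0 without RUX+CSA 24 and 1 without untreated 15, CSA 18, each single RUX pool, RUX+CSA 22 or RUX+CSA 23. Cd101 kept its call in 6 and Tox2 in 9 of the 12 fits without 1 library, and with the other-cell covariate 1 member was higher and none lower. Glycolysis had 1 higher (Ero1l) and 1 lower (Ldhb) of 36, and NF-kappa-B 1 of 29 higher (Nfkbib). Without untreated 14 the NF-kappa-B count was 3, without RUX 19 or RUX+CSA 24 it was 2, and with the other-cell covariate it was 0.

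CSA was also examined apart in mice without RUX (CSA against untreated) and with RUX (RUX+CSA against RUX), which share no library. Without RUX 13 genes passed (0.0987%), with 1829 at an unadjusted p below 0.05, and with RUX 556 passed (4.22%). The 11 genes called in both went the same way: Klrk1, Klrc1, Gzmb, Ccl5, Lgals3, Xdh, Acoxl, Tspan2, Hivep3 and Apobr were higher and Tspan3 lower. They are 84.6% of the first list and 1.98% of the second. Of the 556 genes called with RUX, 526 (94.6%) had the same sign without it, against 65.5% of all genes tested. Klrc1 differed by log2 2.72 without and 2.69 with RUX, Bach2 by 2.01 and 1.99, Foxp3 by -1.0 and -0.99, and Lmna by 2.50 and 3.16. The median of the S phase list was -0.66 without and -0.68 with RUX, and that of the mitosis list -0.88 and -0.85. Across genes the 2 sets of log2 differences had Pearson's r 0.413 and Spearman's rho 0.439, with genes not being independent replicates.

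**Figure D4:**
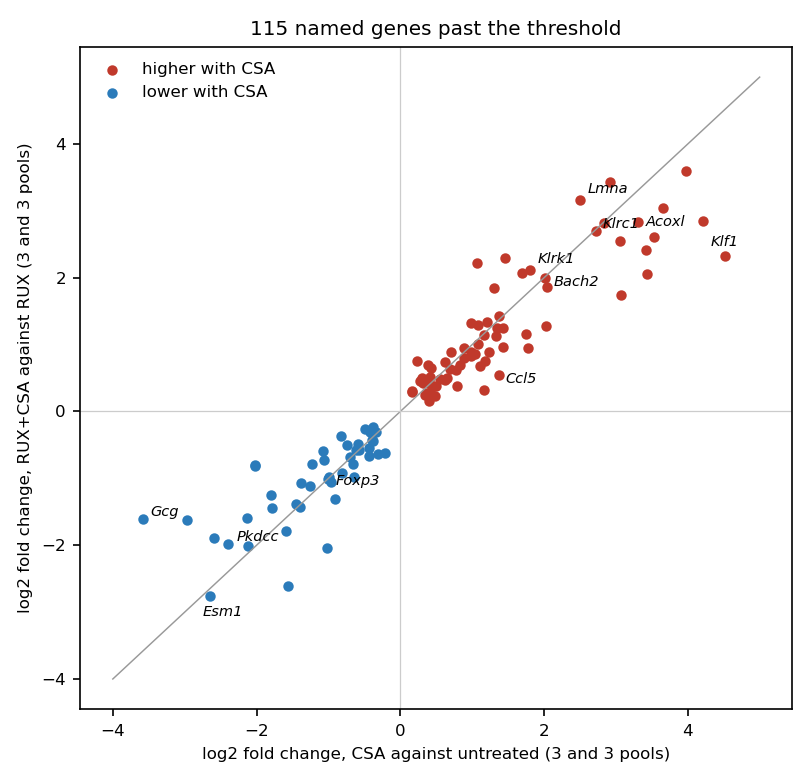
Log2 fold change of 115 named genes past the threshold, for CSA against untreated (horizontal) and RUX+CSA against RUX (vertical), 3 pools a group, with the line of equal change. Left out by hand were 8 genes at 0 CPM in at least 1 pool without CSA. This does not set them apart, since Rhd, Aqp1 and Cldn13 also had such a pool and were drawn. Among the genes left out were Prss34 (8.81 and 2.25) and Ms4a1, and the values of Ms4a1 differ in sign (-1.85 and 11.4). The drawn points lie in the upper right and lower left, as for Klrc1 at 2.72 and 2.69 and Foxp3 at -1.0 and -0.99. All were chosen for passing the CSA main effect, which is fitted on these same pools. A shared sign was therefore largely fixed by the choice of genes. It held for 99.8% of the 981 main-effect calls, against 65.5% of all genes tested.

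Whether the CSA difference itself changed with RUX was tested by the interaction term. Here edgeR called no gene (0%), DESeq2 called 10 and voom none. In edgeR 629 genes had a p below 0.05 before adjustment, and the smallest adjusted p was 0.338. The smallest p belonged to Dpysl2, for a cytoskeletal protein, which differed by log2 -0.65 without and 0.31 with RUX (interaction 0.96, SE 0.16, adjusted p = 0.338), followed by Sh3rf1 (-0.37 and 0.44, adjusted p = 0.797) and Ccl5 (1.37 and 0.55). Without untreated 15 there were 7 calls, Dpysl2 among them (adjusted p = 0.0369). The counts of 13 and 556 do not show a difference of the CSA response with RUX. In the fit of all 12 libraries they were 195 and 103, the opposite order, and the biological coefficient of variation was 0.307 in the 6 libraries without RUX and 0.244 in the 6 with it.

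The CSA difference in CD4 cells was set against that in the 12 CD8 libraries of the same study, scaled together. The CD8 pools labelled CSA 6 and RUX 7 did not group by their labels. The pool labelled CSA 6 had a median Pearson's r of log2 CPM of 0.989 with RUX pools and 0.975 with the other CSA pools, and the pool labelled RUX 7 had 0.982 with CSA pools and 0.965 with the other RUX pools. Other CD8 pools also had a higher median r with another group than with their own. Untreated 3 had 0.988 with RUX and 0.98 with the other untreated pools. RUX 8 had 0.984 with both untreated and CSA pools and 0.978 with the other RUX pools. RUX 9 had 0.985 with untreated and 0.977 with the other RUX pools. Only CSA 6 and RUX 7 were left out in an alternative fit. Whether labels were exchanged was not tested, and the values below rest on the labels as given. Of 13476 genes 11 differed in their CSA response between the cell types (0.0816%), 10 more positive in CD4 cells and 1 more negative. Without the 2 CD8 pools CSA 6 and RUX 7 there were 114, which held all 11. Xdh rose in CD4 cells from a mean of 333 ± 28.5 to 641 ± 61.8 CPM, and in CD8 cells it stood at 353 ± 36.9 without and 377 ± 52.8 CPM with CSA (SD, n = 6 each). The difference between the responses was log2 0.86 (SE 0.12, adjusted p = 0.00758, and 0.002 without the 2 pools). Ajuba, for a LIM domain adaptor, went from 27.8 ± 15 to 102 ± 20.5 CPM in CD4 cells against 6.74 ± 3.88 and 5.04 ± 2.3 CPM in CD8 cells (log2 2.38, SE 0.43, adjusted p = 0.0373). Esm1 went from 24.4 ± 12.1 to 3.74 ± 1.76 CPM in CD4 cells and stood at 12.4 ± 3.49 and 14.2 ± 2.34 CPM in CD8 cells (log2 -2.91, SE 0.48, adjusted p = 0.0373).

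The other named genes of this kind were Acoxl (log2 2.52), Srgap3 (1.25), the chemokine receptor gene Xcr1 (1.23), the protease genes Adamts14 (1.14) and Furin (0.71), and Kdm3b, for a histone demethylase (0.56), with adjusted p between 0.0289 and 0.0373 in edgeR, and between 0.00108 and 0.0346 without the 2 CD8 pools. Lgals7 and Lrrc6, with low levels, complete the 11. The difference between cell types did not pass for Klrc1 (log2 1.81, SE 0.47, adjusted p = 0.126), Klrk1 (1.24, SE 0.45, adjusted p = 0.223), Bach2 (1.46, SE 0.30, adjusted p = 0.0715), Foxp3 (-1.12, SE 0.25, adjusted p = 0.0769) or Bcl2l11 (1.03, SE 0.24, adjusted p = 0.091). Without the 2 CD8 pools it passed for Klrc1 (log2 1.20, SE 0.27, adjusted p = 0.0466) and Bach2 (1.11, SE 0.24, adjusted p = 0.0349) and not for Klrk1 (0.61, SE 0.21, adjusted p = 0.208), Foxp3 (-1.08, SE 0.26, adjusted p = 0.0611) or Bcl2l11 (0.81, SE 0.22, adjusted p = 0.0899). In CD8 cells Klrc1 stood at a mean of 539 CPM without and 983 CPM with CSA, and Klrk1 at 291 and 472 CPM. The count of 11 lay between 1 (as without CD8 CSA 4 or CD4 CSA 17) and 48 (without CD4 untreated 14) when single libraries were left out, with 250 in DESeq2 and 6 in voom. Xdh passed in each of these fits.

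**Figure D5:**
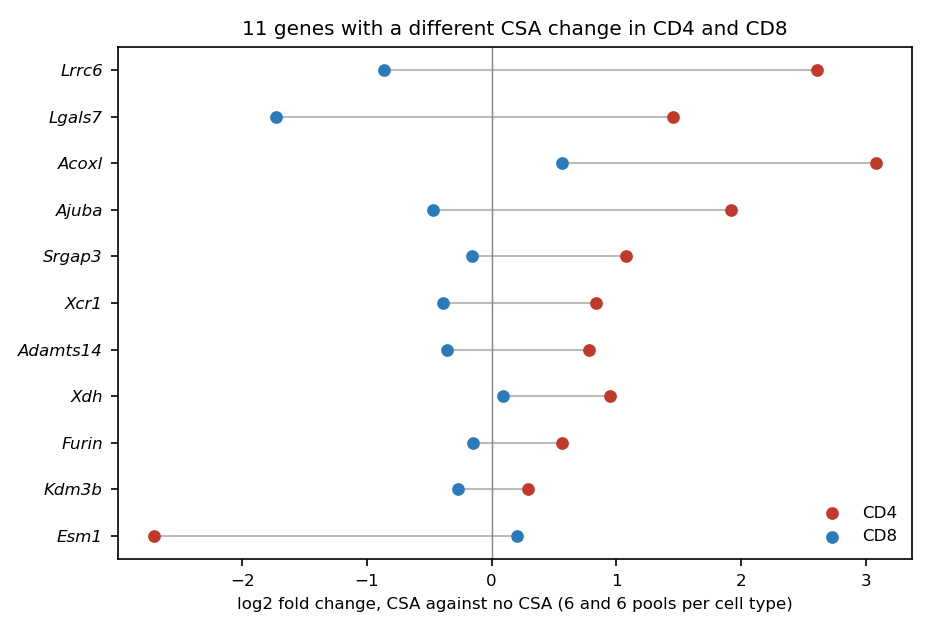
Log2 fold change between pools with and without CSA in CD4 (red) and CD8 cells (blue) for the 11 genes whose change differed between the cell types, 6 pools against 6 in each. Esm1 is the gene with the lower value in CD4 cells (-2.71 against 0.20), and Lrrc6 shows the widest positive gap (2.61 against -0.86).

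Promoter windows were searched for the core sequence bound by NFAT, GGAAAA, and for the AP-1 site TGANTCA (N is any base), each on both strands. The reason was that CSA acts through NFAT and several immediate early genes were higher. RefSeq windows of GRCm38.p6, from 250 bases before to 50 after a gene's start, were matched by symbol for 9995 of the 13175 tested genes. The NFAT core was in a window of 103 of 376 matched genes that were higher (27.4%), 83 of 365 that were lower (22.7%) and 2400 of all 9995 (24.0%). The AP-1 site was in 34 (9.04%), 19 (5.21%) and 626 (6.26%). The 2 motifs do not share a match. A gene counted if any of its windows held the motif. The matched genes had 509, 438 and 12680 windows in the same order, so the shares also depend on windows per gene. These are counts without a test, and a match is not a site. The 6 windows shown are those of the genes with the smallest p in each direction, among the most changed by size or p, whose window holds the NFAT core. Letters of the core are in capitals, on either strand of the gene.
Tspan33: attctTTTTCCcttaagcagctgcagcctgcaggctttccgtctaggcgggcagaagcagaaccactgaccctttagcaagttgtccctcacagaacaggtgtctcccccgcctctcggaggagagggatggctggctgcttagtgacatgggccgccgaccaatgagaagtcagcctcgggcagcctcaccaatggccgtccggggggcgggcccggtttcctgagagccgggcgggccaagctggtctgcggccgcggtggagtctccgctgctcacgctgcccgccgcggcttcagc
Rhd: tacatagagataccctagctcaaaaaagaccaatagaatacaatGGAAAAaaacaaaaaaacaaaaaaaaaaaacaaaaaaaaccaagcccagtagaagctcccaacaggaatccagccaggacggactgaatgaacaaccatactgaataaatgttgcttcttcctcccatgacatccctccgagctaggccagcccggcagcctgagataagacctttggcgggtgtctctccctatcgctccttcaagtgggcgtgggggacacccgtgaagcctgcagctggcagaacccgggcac
Aqp1: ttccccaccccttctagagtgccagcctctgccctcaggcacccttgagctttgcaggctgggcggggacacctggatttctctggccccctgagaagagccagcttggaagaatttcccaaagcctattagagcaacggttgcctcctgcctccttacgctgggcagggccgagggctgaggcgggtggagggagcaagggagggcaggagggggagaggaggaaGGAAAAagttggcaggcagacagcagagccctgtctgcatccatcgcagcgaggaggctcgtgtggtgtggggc
Foxp3: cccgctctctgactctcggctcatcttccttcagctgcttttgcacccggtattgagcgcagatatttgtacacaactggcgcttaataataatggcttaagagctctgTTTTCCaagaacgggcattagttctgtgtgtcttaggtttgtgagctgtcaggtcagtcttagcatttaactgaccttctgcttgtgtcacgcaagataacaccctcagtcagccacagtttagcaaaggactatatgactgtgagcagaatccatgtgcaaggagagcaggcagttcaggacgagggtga
Rtkn: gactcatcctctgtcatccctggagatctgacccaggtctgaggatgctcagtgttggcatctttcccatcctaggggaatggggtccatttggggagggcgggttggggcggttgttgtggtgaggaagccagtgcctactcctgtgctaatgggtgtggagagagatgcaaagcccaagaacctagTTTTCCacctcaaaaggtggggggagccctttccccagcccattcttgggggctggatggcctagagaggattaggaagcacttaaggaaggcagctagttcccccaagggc
Kcnip3: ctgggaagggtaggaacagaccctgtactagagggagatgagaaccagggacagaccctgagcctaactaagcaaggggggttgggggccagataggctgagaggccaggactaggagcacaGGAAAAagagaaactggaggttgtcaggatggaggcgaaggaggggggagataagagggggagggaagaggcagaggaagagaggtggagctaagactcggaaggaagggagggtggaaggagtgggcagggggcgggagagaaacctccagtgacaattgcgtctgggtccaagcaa

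The windows of genes higher with CSA are Tspan33 at chr6:29693964-29694263 (plus strand, match from position -245 relative to the start), Rhd at chr4:134864286-134864585 (plus strand, match from position -206 relative to the start) and Aqp1 at chr6:55336049-55336348 (plus strand, match from position -24 relative to the start). The windows of genes lower with CSA are Foxp3 at chrX:7580233-7580532 (plus strand, match from position -141 relative to the start), Rtkn at chr6:83141856-83142155 (plus strand, match from position -62 relative to the start) and Kcnip3 at chr2:127521343-127521642 (minus strand, match from position -128 relative to the start). Foxp3 had 2 windows and Rtkn and Kcnip3 had 3 each, of which 1 with the core is shown. All 3 higher genes belong to the red cell group described with the erythroid markers. Rtkn ran from 5.75 to 15 CPM without and from 2.41 to 4.46 CPM with CSA (log2 -1.53, adjusted p = 0.00211), and Kcnip3, for a calcium-binding protein, from 5.54 to 13.7 and 1.76 to 4.39 CPM (log2 -1.53, adjusted p = 0.00432). Neither overlapped between groups.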

How the data were processed

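RNA-seq read pairs were counted per gene by the authors and deposited as raw counts for 24421 genes. Pairs were counted over exons with featureCounts 2.0.3 without a strand option, per the file headers, after alignment with STAR to mm10, per the submitters' processing notes. The SMART-Seq mRNA LP kit was used, per the labels' protocols. From these counts, 13175 genes passed edgeR's filterByExpr on the 4 groups. The CSA coefficient was tested with edgeR 4.0.16 (quasi-likelihood, TMM factors, RUX as covariate, robust, two-sided, R 4.3.3) with Benjamini-Hochberg adjustment and a threshold of 0.05. DESeq2 1.42.0, limma 3.58.1 voom, other filters and scalings, covariates and left-out libraries were alternatives. Log2 CPM used a prior count of 2. On simulated data with 200 changed genes among 13175, the CSA main effect test recovered 55.2% of 1.5-fold, 88.1% of 2-fold and 93.9% of 4-fold changes and called 7 unchanged genes. The changed genes were drawn only from genes above a minimum mean count, so these shares do not cover genes with low counts. Noise was independent between genes, so no shift in the mix of cells was simulated.

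The members and gene lists were chosen with earlier results of these data known. Named by rule were the 10 highest and 10 lowest genes with separate groups and a mean log2 CPM of at least 1, the 5 smallest p in each direction, up to 4 called genes per list, and fixed genes. The fixed genes were of calcineurin signalling and helper function, with Mki67, Gzmb, Cish and Irf1. They also held Gcg, Pkdcc and Enpp2, fixed with earlier results of these data known. Enpp2 was named by no other part of the rule. Other genes named were chosen after their values were seen. The labels do not say whether pools were processed together, so p-values measure the spread between pools. The NK marker levels without Klrk1 and the CD8 pool correlations were added after the data were seen. Some genes are not reported here.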

Additional observations from a re-analysis of the deposited data

Results flagged for a closer look

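A pool was singled out where its gap to the nearest other pool of its 6, as a share of their whole range, was above Dixon's 95% critical value. Of 304 such groups 15 met this, and chance gives about 1 in 20. Values are log2 CPM. Among pools with CSA, CSA 17 was high for Xdh (9.60, others 9.24 to 9.36), and CSA 18 was high for Satb1 (7.68, others 6.73 to 7.08) and low for Egr2 (4.57, others 5.35 to 5.72), Ifng (6.43, others 7.51 to 7.64) and Krt17 (-3.68, others -0.19 to 1.84). RUX+CSA 23 was low for Ifitm1 (4.51, others 4.94 to 5.06) and Cd163l1 (2.26, others 3.34 to 3.87), and RUX+CSA 24 was high for Itgae (4.15, others 3.36 to 3.61). Among pools without CSA, untreated 14 was high for Ptpn6 (9.43, others 8.73 to 8.94) and Nfatc1 (10.14, others 9.60 to 9.80) and low in its neutrophil marker mean (-1.78, others 4.33 to 7.42). Untreated 15 was high in its dendritic cell (1.69, others 1.12 to 1.33) and platelet marker means (1.34, others -1.49 to -0.52). Untreated 13 for Ms4a1 (-3.16) and RUX 20 for Ly6d (-2.50) were the pools with reads where the others had none (-3.68).

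The CSA difference in CD4 cells minus that in CD8 cells passed the edgeR interaction contrast for 11 genes. It was log2 3.47 for Lrrc6, 3.18 for Lgals7, 2.52 for Acoxl, 2.38 for Ajuba, 1.25 for Srgap3, 1.23 for Xcr1, 1.14 for Adamts14, 0.86 for Xdh, 0.71 for Furin, 0.56 for Kdm3b and -2.91 for Esm1.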

How the results depend on the processing

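The count of 981 genes for the CSA main effect was 1634 in DESeq2 (977 of the 981 among them), 253 when the mean of other-cell markers entered as covariate (202 of the 981 included), and 541 to 1171 with 1 library left out, lowest without RUX 20 and highest without untreated 14. With covariates chosen after seeing the data it was 136 (erythroid mean) and 89 (mitosis mean). Between 896 and 1003 genes passed with other scalings, filters, voom, group means or no RUX covariate. Of 123 genes named by rule that passed, 92 kept their call without each single library, 97 without untreated 13 and 14 together, 48 with the other-cell, 36 with the erythroid, 85 with the macrophage and 25 with the mitosis covariate, 119 in DESeq2 and 115 in voom. The 20 that passed in all 25 settings were Tspan2, Xdh, Klrk1, Il12rb2, Klrd1, Bach2, Egr3, Acoxl, Pkdcc, Lgals3, Slamf7, Tspan3, Klrc1, Tprg, Lmna, Cd44, Gldc, Foxp3, Egr1 and Cd163l1. Calls were lost for Tbx21 without RUX 20, Dapl1 without CSA 18 or RUX 20, Il21r without untreated 15 or RUX+CSA 22, Tox2 without RUX 20, RUX+CSA 23 or RUX+CSA 24, and for Stat6, Birc5, Ppih, Socs1, Irf8, Cd6 and Gbp9 without each of 8 to 10 libraries. The direction turned for Cldn13 with the erythroid covariate (-0.079) and Nop58 with the mitosis covariate (0.036).

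The interaction count of 0 was 10 in DESeq2, 1 without the low-count filter and 0 to 7 with 1 library left out. CSA without RUX had 195 calls in the fit of all 12 libraries, 518 in DESeq2, and 0 (without CSA 17) to 47 (without untreated 15) with 1 left out. CSA with RUX had 103, 1034, and 225 (without RUX+CSA 23) to 489. The RUX count of 2 was 170 in DESeq2, 0 in voom and 0 to 55 with 1 left out. CD4 minus CD8 gave 114 without CD8 CSA 6 and RUX 7, 250 in DESeq2, 6 in voom and 1 to 48 with 1 left out. The cause of these shifts was not tested. No paired analysis was possible because each pool number belongs to 1 library. At this depth the floor of 3 counts lies at 0.0916 to 0.17 CPM, and 3 pools a group limit what a single drug contrast can show.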
